A study of Mus musculus with 4 samples.

Results

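A set of 10 genes that mark the epithelium of the choroid plexus was read across astrocyte cultures from 4 brain regions of postnatal day 3 mice: Ttr, Folr1, Calml4, Kcnj13, Aqp1, Clic6, Slco1a4, Kl, Prlr and Cldn2. The members were every probe set that the platform annotation gives to 1 of these genes alone, which came to 11 of the 22690 probe sets and 7 of the 10 genes, of 12393 genes named in all. Kcnj13, Clic6 and Prlr had no such probe set and are not analysed here. The cultures came from the hippocampus, the olfactory bulb, the ventral mesencephalon (the floor of the midbrain) and the subventricular zone, a germinal layer beside the lateral ventricle. Below they are called hippocampal, bulb, mesencephalic and subventricular cells. All pups were CD-1, an outbred stock, and the labels name no allele and no agent in any group. All cells were grown in medium with 10% serum, shaken at 200 rpm to favour astroglia, replated and kept as monolayers until RNA extraction. Tissue of littermates was pooled before culture. The design text speaks of 4 pups and then of 3, so the number in a pool is not settled, and a culture stands for a pool rather than for an animal.

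Each region had 1 array, so the differences below are unreplicated and carry no p-value; precision is limited by the number of arrays. The values are signal intensities on a linear scale. Trimmed by 2%, the array means were alike as deposited, at 400.1 to 400.2. The array median was 136.8 for the hippocampus and 115.6 to 117.5 for the other cultures. A signal floor of 122.1, the median of all probe sets and arrays, stands in for detection calls and is not a measured background. By convention, values under it are treated as background without an order among themselves. A fold against such a value is given as a lower bound. The hippocampus array had 52.2% of its probe sets above the floor, the other arrays 49.1% to 49.4%. A gene with several probe sets was represented by the 1 with the highest mean log2 signal. It was called higher in a culture that exceeded every other culture by 2-fold or more, and lower in a culture that every other exceeded by as much. Between probe sets of 1 gene the scatter was 0.16 on the log2 scale for an array (median-based SD over 1977 genes), a measurement error that leaves out how much cultures vary. In a culture, fewer cells of a type and less RNA per cell cannot be told apart.

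The choroid plexus is a sheet of secretory epithelium over a vascular core that hangs into the brain ventricles and makes cerebrospinal fluid. Its epithelial cells move water and ions into the ventricle, carry vitamins and hormones between blood and fluid, and close the space between cells with tight junctions. In the forebrain the tissue is attached beside the hippocampus, at the edge of the embryonic cortical hem. Transthyretin, Ttr, is its best-known product, while most of the other genes also serve other cells: Aqp1 in red cells and some endothelia, Slco1a4 in brain capillaries, Kl and Prlr in kidney and other organs.

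Of the 7 genes with a probe set, 6 lay above the floor on some array, and Kl on none. The hippocampus culture was called higher for 3 genes, Ttr, Folr1 and Calml4, and the ventral mesencephalon culture lower for 1, Slco1a4. Over all 7987 genes above the floor, 2.49% were called higher in the hippocampus and 0.563% lower in the ventral mesencephalon. No member was called in the other directions, where the share over all genes was 0.488% (hippocampus, lower), 1.87% and 1.55% (olfactory bulb, higher and lower), 1.57% (ventral mesencephalon, higher), 1.28% and 1.01% (subventricular zone, higher and lower). The hippocampus gave the highest signal for 5 of the 6 members above the floor, against 28.0% of all genes. Slco1a4 was the exception, with its highest signal in the subventricular zone. The members were chosen with earlier results of these arrays known, so these shares describe them and test nothing. The hippocampus culture was also the highest of the 4 in ependymal, microglial and astrocyte markers (median log2 differences of 2.19, 2.97 and 0.71 from the other cultures). Microglial markers were high in the olfactory bulb culture too (2.52). Values of these markers are given further on, and their part in the members' values was not tested.

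**Figure D1:**
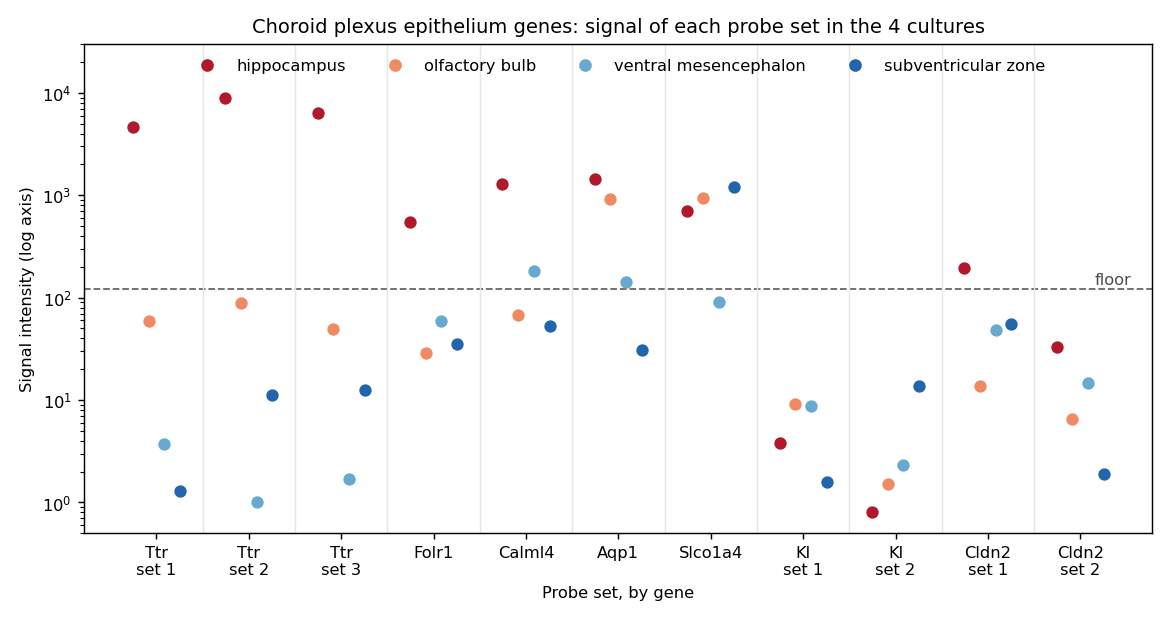
Signal intensity (log axis) of each of the 11 member probe sets, grouped by gene, with 1 point per culture and the floor of 122.1 as a dashed line. The 3 Ttr probe sets read 4669 to 8960 in the hippocampus and at most 88.1 elsewhere, Slco1a4 is low only in the ventral mesencephalon (90.7), and all points of Kl lie under the floor.

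The start regions of 3 members with contrasting patterns are shown first, Calml4 (high in the hippocampus), Aqp1 (high in the hippocampus and olfactory bulb) and Slco1a4 (low in the ventral mesencephalon). The sequences are RefSeq's, build GRCm38.p6, and run from 250 bases before to 50 bases after the gene's start, 5′ to 3′ on the gene's strand. Calml4 lies at chr9:62857854-62858153 on the plus strand, Aqp1 at chr6:55336049-55336348 on the plus strand, and Slco1a4 at chr6:141856171-141856470 on the minus strand.
Calml4: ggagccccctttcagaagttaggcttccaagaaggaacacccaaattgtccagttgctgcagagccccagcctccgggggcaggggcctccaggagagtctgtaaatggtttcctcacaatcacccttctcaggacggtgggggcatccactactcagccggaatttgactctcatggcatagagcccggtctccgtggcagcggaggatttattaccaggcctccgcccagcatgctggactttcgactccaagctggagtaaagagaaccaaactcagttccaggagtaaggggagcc
Aqp1: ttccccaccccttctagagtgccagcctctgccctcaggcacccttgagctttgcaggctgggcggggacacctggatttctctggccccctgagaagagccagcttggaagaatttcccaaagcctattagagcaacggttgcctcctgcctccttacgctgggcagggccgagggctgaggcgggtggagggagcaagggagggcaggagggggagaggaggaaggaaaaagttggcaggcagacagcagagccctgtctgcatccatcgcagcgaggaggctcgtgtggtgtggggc
Slco1a4: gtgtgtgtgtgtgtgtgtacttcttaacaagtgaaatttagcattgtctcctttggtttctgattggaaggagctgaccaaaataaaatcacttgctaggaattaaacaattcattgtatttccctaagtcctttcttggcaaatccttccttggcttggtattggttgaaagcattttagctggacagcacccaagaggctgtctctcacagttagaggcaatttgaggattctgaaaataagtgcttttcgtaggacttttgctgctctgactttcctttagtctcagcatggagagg
These windows held 56.7% G and C with 8 CpG pairs for Calml4, 62.7% with 8 for Aqp1 and 40.7% with 1 for Slco1a4, against medians of 52.7% and 7 over all 32851 promoter windows of the table. Of the 10 genes, 7 had a window in the table, 9 windows in all; Ttr, Folr1 and Clic6 had none. TAATCC, the core bound by OTX2, a homeobox factor that choroid plexus needs, was found on neither strand in any of the 9, and 7.06% of all promoter windows hold it. TGTTTAC, the core bound by forkhead factors such as FOXJ1, searched on both strands too, was found in 1 window, of Prlr, and in 3.65% of all windows. No capitals appear in the sequences above because neither motif is in them, which says nothing about binding of these factors.

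Ttr, the carrier of thyroid hormone and of retinol-binding protein in cerebrospinal fluid, was the member furthest apart. Its 3 probe sets read 4669, 8960 and 6372 in hippocampal cells. The same probe sets read 58.9, 88.1 and 49.8 in bulb cells, 3.7, 1.0 and 1.7 in mesencephalic cells, and 1.3, 11.2 and 12.5 in subventricular cells. All 3 were therefore above the floor on the hippocampus array alone. The 3 are readings of the same gene on the same arrays, so they do not replicate the difference between cultures. The hippocampus was at least 38.2-fold, 73.4-fold and 52.2-fold above each other culture by these probe sets. The suffixes of their names mark 2 of them as able to cross-hybridise with other sequences and the third as shared by transcripts of the same gene, and each gave a bound of 38.2-fold or more.

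Folr1, the folate receptor alpha with which the choroid plexus moves folate into the fluid, had 1 probe set. It read 550.3 in hippocampal cells, 28.6 in bulb cells, 58.7 in mesencephalic cells and 34.9 in subventricular cells. Only the hippocampus lay above the floor, at least 4.51-fold over each other culture. With the floor raised to the 70th percentile of all signals, 360.4, this call was lost.

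Calml4, a calmodulin-like calcium-binding protein, read 1301 in hippocampal cells, 67.8 in bulb cells, 180.5 in mesencephalic cells and 52.6 in subventricular cells. The hippocampus was 7.21-fold above the ventral mesencephalon, where the gene was also above the floor, and at least 10.7-fold above the other two. Among the 142 genes called higher in the hippocampus with the next culture also above the floor, this gap of 2.85 on the log2 scale was in place 7.

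Aqp1, the water channel of the apical membrane of choroid plexus epithelium, divided the cultures differently. It read 1457 in hippocampal cells and 928.6 in bulb cells, against 141.9 in mesencephalic cells and 31.0 in subventricular cells. The hippocampus was 1.57-fold over the olfactory bulb, short of the 2-fold rule. It was 10.3-fold over the ventral mesencephalon and at least 11.9-fold over the subventricular zone, and the olfactory bulb was 6.54-fold and at least 7.61-fold over the same cultures. Aqp1 was called higher in the hippocampus without the olfactory bulb array, and higher in the olfactory bulb without the hippocampus array.

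Slco1a4, an organic anion transporter of brain capillaries and choroid plexus that carries bile salts, steroid conjugates and thyroid hormones, had another pattern. It read 90.7 in mesencephalic cells, against 708.3 in hippocampal cells, 944.9 in bulb cells and 1195 in subventricular cells. The ventral mesencephalon value was under the floor, at least 5.80-fold below each other culture. The other 3 cultures lay less than 2-fold apart, the subventricular zone 1.27-fold over the olfactory bulb and 1.69-fold over the hippocampus. The call was lost with the floor at the 70th percentile. Slco1a5, a close relative with a probe set of its own, read 253.0, 258.2, 213.9 and 873.1 in mesencephalic, hippocampal, bulb and subventricular cells.

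Cldn2, the claudin that makes tight junctions of leaky epithelia permeable to cations, was near the floor. Its first probe set read 193.7 in hippocampal cells, 13.8 in bulb cells, 48.6 in mesencephalic cells and 55.2 in subventricular cells, so the hippocampus was at least 1.59-fold higher, which is not a call. The second probe set lay under the floor on all 4 arrays, at 33.1, 6.5, 14.7 and 1.9 in the same order. With the floor at the 25th percentile, 17.0, Cldn2 was called higher in the hippocampus and lower in the olfactory bulb.

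Kl, the membrane protein klotho, a co-receptor for fibroblast growth factor 23, was not above the floor anywhere. Its 2 probe sets read 0.8 to 3.8 in hippocampal cells, 1.5 to 9.2 in bulb cells, 2.3 to 8.7 in mesencephalic cells and 1.6 to 13.8 in subventricular cells. No difference was detectable at this signal.

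**Figure D2:**
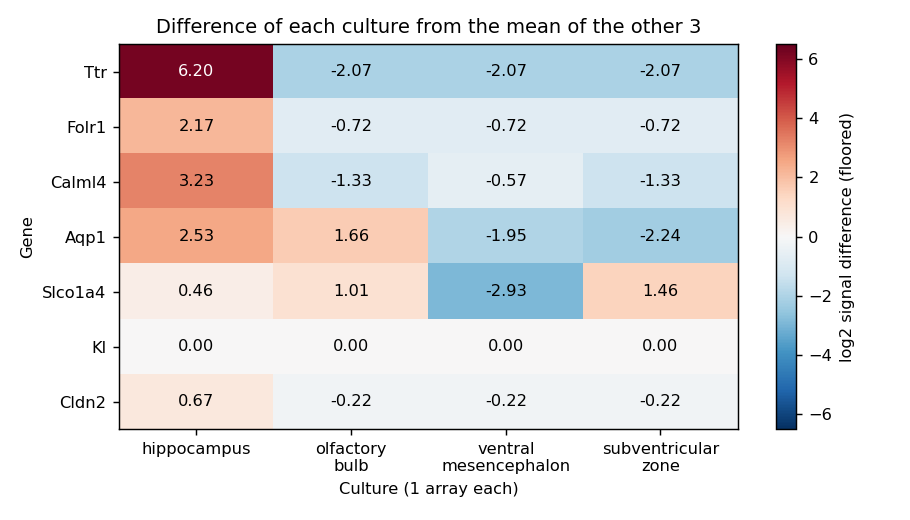
Difference of the log2 signal (floored at 122.1) of each culture from the mean of the other 3, for the 7 member genes, on a scale from blue (lower) to red (higher). The hippocampus column is at or above 0 for every gene, up to 6.20 for Ttr, and the ventral mesencephalon column reaches -2.93 for Slco1a4; Kl is 0 because it is at the floor throughout.

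Set against the mean of the other 3 cultures, all 6 members above the floor were higher in the hippocampus, by 0.46 for Slco1a4 to 6.20 for Ttr (log2 difference, floored). For Slco1a4 this direction rested on the low ventral mesencephalon array: its hippocampus difference was -0.59 without that array, and with the 70th percentile as the floor it was -0.07. The 6 members together had a median of 2.35, beside 0.01 over all 7987 genes, of which 50.9% lay above 0. In the olfactory bulb the median was -0.47, with 2 of 6 members above 0, Aqp1 (1.66) and Slco1a4 (1.01). In the ventral mesencephalon it was -1.34, with none above 0, and in the subventricular zone -1.02, with 1, Slco1a4 (1.46), above 0. The medians over all genes in these 3 cultures were -0.02, -0.06 and -0.02. The 4 differences of a gene sum to 0, so a high hippocampus value lowers the other 3. Without the hippocampus array, 3 members were above the floor on any array and the olfactory bulb median became 1.31. Pair by pair, 3 members were 2-fold or more higher in the hippocampus than in the olfactory bulb (8.69% of all genes), 5 higher in the hippocampus than in the ventral mesencephalon (9.43%) and 4 higher in the hippocampus than in the subventricular zone (6.54%). None was 2-fold lower in the hippocampus in these pairs, where 5.23%, 6.77% and 4.95% of all genes were. Bulb cells had 2 members 2-fold higher than mesencephalic cells, Aqp1 and Slco1a4 (5.53% of all genes), and none lower (6.46%). They had 1 member higher than subventricular cells, Aqp1 (8.39%), and none lower (9%). Mesencephalic cells had none higher than subventricular cells (4.97%) and 1 lower, Slco1a4 (5.45%).

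The genes most like each called member were taken by the Euclidean distance over the 4 arrays between log2 signals centred on each gene's mean, which rests on 4 points. Nearest to Ttr were Cnmd (distance 1.24), a cartilage matrix protein gene, the chemokine Ccl6 (1.89) and Mia (1.90). Their hippocampus signals were 3323, 1978 and 2034, and their highest signals elsewhere 72.4, 92.4 and 136.2. Nearest to Folr1 were Sel1l3 (0.02), the fatty acid receptor Cd36 (0.05) and Ppp1r32 (0.13), all under the floor outside the hippocampus, where floored values are alike by construction. Nearest to Calml4 were Itih3 (0.47), the gelatinase Mmp9 (0.48) and Lrrc23 (0.51). Nearest to Slco1a4 were Rtn1 (0.92), the retinaldehyde dehydrogenase Aldh1a1 (1.02) and the acyl-CoA synthetase Acsl6 (1.03), with ventral mesencephalon signals of 568.8, 269.9 and 62.8. Among the members themselves, Folr1 and Calml4 were closest (1.02) and Ttr and Slco1a4 furthest apart (5.59).

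A further list of 64 genes known from choroid plexus epithelium was read in the same way. Of these, 53 had a probe set of their own and 35 were above the floor somewhere. Of the 35, the hippocampus held the highest signal for 16 (45.7%, against 28.0% of all genes) and the olfactory bulb for 9. Calls were 4 higher and 1 lower in the hippocampus, 3 higher and 1 lower in the olfactory bulb, 1 higher and 1 lower in the ventral mesencephalon, and 1 higher and 2 lower in the subventricular zone, beside the shares over all genes given above. The median difference from the mean of the other cultures was 0.35 in hippocampal cells, -0.07 in bulb cells, -0.36 in mesencephalic cells and -0.02 in subventricular cells.

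Among the secreted proteins, Ecrg4, the precursor of a peptide released into cerebrospinal fluid, read 3674 in hippocampal cells, 1155 in bulb cells, 620.4 in mesencephalic cells and 374.7 in subventricular cells, a 3.18-fold gap. The chemoattractant Rarres2 was 2.39-fold higher in the hippocampus (633.8) and the collagen chain Col9a3 at least 2.82-fold (344.9). Igf2, a growth factor of choroid plexus and meninges, was at least 7.60-fold lower in the subventricular zone (24.6), against 928.0 to 10268 in the other cultures, and was also called higher in the olfactory bulb; the fibroblast list holds it too. Wfdc2, a protease inhibitor of secretory epithelia, was 3.60-fold higher in the subventricular zone (500.1), and the phospholipid transfer protein Pltp was 3.00-fold lower in the olfactory bulb (1370). Igfbp2, an abundant binding protein of cerebrospinal fluid, read 9205 to 13129 without a call. On the low side, the collagen chain Col8a1 was 3.00-fold lower in the hippocampus (914.7) and Col18a1 2.28-fold lower in the subventricular zone (373.8).

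None of the 12 further channel and transporter genes above the floor was called higher in the hippocampus, where 2.49% of all genes were. At this share a list of 12 can hold none. Their median difference in the hippocampus was 0.32, with 7 of the 12 above 0. Slc4a10, a bicarbonate transporter of the basolateral membrane, was at least 30.9-fold higher in the olfactory bulb (3774), with at most 112.6 elsewhere. The kinase gene Stk39, which acts on chloride cotransporters, was 3.38-fold higher there. Fxyd1, a regulator of the sodium pump, was at least 3.69-fold lower in the ventral mesencephalon (36.7), against 450.4 to 1384 in the other 3, the same direction as Slco1a4. The thyroid hormone transporter Slco1c1, also of capillaries and astrocytes, read 706.7 in hippocampal cells and 507.1 in bulb cells, against 0.6 in mesencephalic cells and 85.4 in subventricular cells, which was no call. Of membrane proteins, the retinol dehydrogenase Rdh5 was 2.89-fold higher in the hippocampus (408.2) and Steap1, a metalloreductase family member, 2.16-fold higher in the ventral mesencephalon (431.8).

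Of the further choroid plexus genes, some were under the floor in the hippocampus culture and others above it. The homeobox factor Otx2 read 85.4 there, 1.9 in bulb cells, 133.9 in mesencephalic cells and 90.0 in subventricular cells. The roof plate factor Lmx1a read 18.5 to 42.0 over the 4 arrays, the potassium channel subunit Kcne2 7.1 to 25.3 and the serotonin receptor Htr2c 1.1 to 9.9. In all, 18 of the 53 genes were under the floor on every array and 35 above it on some. This is close to the share over all genes, where 7987 of 12393 were above it on some array. The 18 include the bicarbonate transporter Slc4a5, the carbonic anhydrases Car12 and Car14, the claudins Cldn1 and Cldn3 and the retinol-binding protein receptor Stra6. The epithelial keratins Krt8 (134.2) and Krt18 (125.4) were above the floor in the hippocampus alone, by a small margin. Of the 7 members with a probe set, Ttr, Folr1, Calml4, Aqp1, Slco1a4 and Cldn2 were above the floor in hippocampal cells and Kl was not. Of the 53 further genes, 30 were above it there, beside 22 in bulb cells, 21 in mesencephalic cells and 22 in subventricular cells. Over all probe sets of the hippocampus array, a count of probe sets rather than of genes, 52.2% were above the floor. Among the 30 in hippocampal cells were Msx1 (267.4), Rfx2 (238), Car2 (765.7), Sostdc1 (343.1) and Spint2 (355.7), none of them called in any culture. Sostdc1 (421.1) and Spint2 (443.8) read higher in subventricular cells, where Car2 read 750.4. Msx1 and Rfx2 had their highest signal in hippocampal cells.

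**Figure D3:**
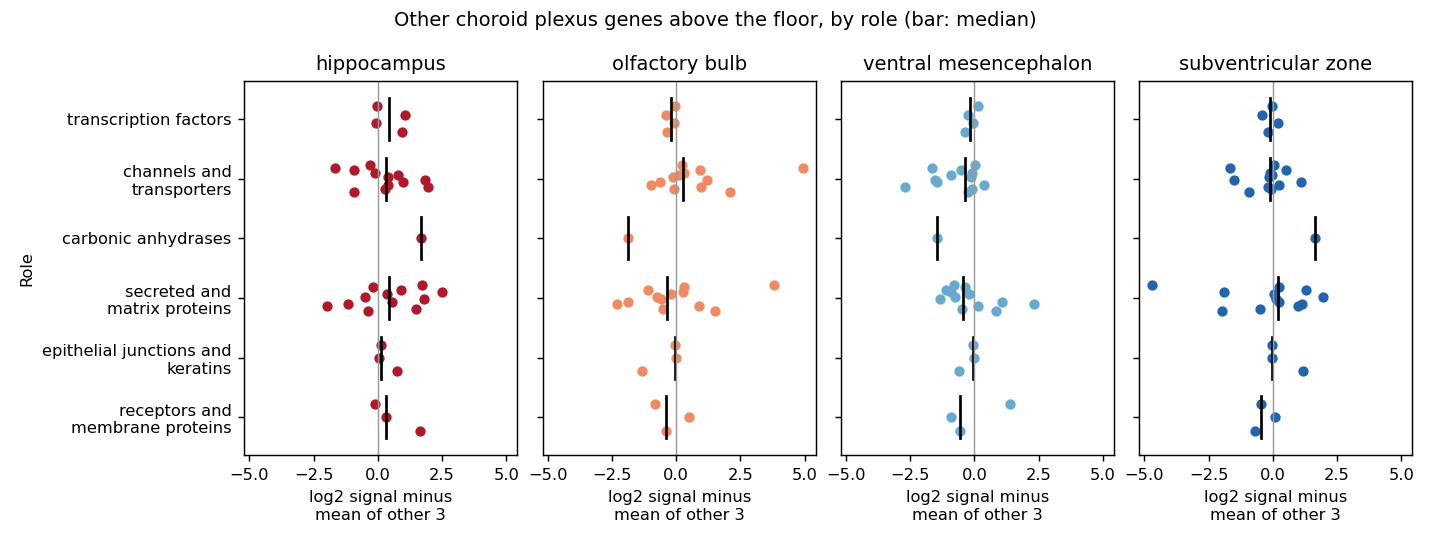
Log2 signal of each culture minus the mean of the other 3, for the 35 further choroid plexus genes above the floor, by role, with 1 point per gene and a bar at the median of each role. Points spread to both sides in all cultures; the highest is Slc4a10 in the olfactory bulb and the lowest Igf2 in the subventricular zone.

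None of the partner genes of the members was called in the hippocampus, where 2.49% of all genes were called higher and 0.488% lower. At these shares, short lists can hold none. Of 8 folate genes named, 7 were above the floor, with medians no further from 0 than 0.20, and the myeloid folate receptor Folr2 was 2.41-fold higher in the olfactory bulb (326.3). Aldh1l1, a folate enzyme and astrocyte marker, was 2.96-fold higher in the subventricular zone (5106). It was also called lower in the olfactory bulb (310.8, against 1711 to 5106 in the other cultures). Around Ttr, the retinol-binding protein Rbp4 was under the floor on all 4 arrays (29.1 to 119.4), the deiodinase Dio2 was 4.24-fold higher in the ventral mesencephalon (773.3) and the thyroid hormone-binding protein Crym 16.0-fold higher in the subventricular zone (4089). Of 10 prolactin pathway genes, 8 were above the floor and Socs2, a feedback inhibitor, was 2.40-fold higher in the olfactory bulb (673.1), while Jak2, the kinase of the receptor, read 320.2 to 784.0. The FGF receptor Fgfr1, a partner of klotho, read 1445 to 1873, and Klb, the related co-receptor, at most 3.8.

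In the families of aquaporins, claudins and inward rectifiers, most genes were under the floor. Over all 12393 genes, 7987 were above it on some array. Aqp4, the astrocyte water channel, was the only other aquaporin of 7 above the floor, at 3943 in hippocampal cells, 1575 in bulb cells, 1956 in mesencephalic cells and 4916 in subventricular cells. Of 13 other claudins, 2 were above it, Cldn10 in hippocampal cells (237.8) and Cldn11, a claudin of myelin and the arachnoid, which was 9.54-fold higher in the olfactory bulb (3052). The chloride intracellular channel genes Clic1 and Clic4 read 2314 to 3365 and 2584 to 7950. Of 13 inward rectifiers, only Kcnj10, the astrocyte channel, was above the floor, at 4779 in hippocampal cells, 476.4 in bulb cells, 375.7 in mesencephalic cells and 2667 in subventricular cells. Slco2a1, a prostaglandin transporter, was 4.70-fold higher in the subventricular zone (742.4) and Slco3a1 2.23-fold higher in the ventral mesencephalon (781.4).

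These cultures also differed in markers of other cell types. Of 11 markers of astrocytes, the labelled cell type, 10 were above the floor on some array, beside 7987 of 12393 over all genes. By culture, 10 were above it in hippocampal cells, 10 in bulb cells, 8 in mesencephalic cells and 8 in subventricular cells. S100b and Gjb6 were under it in mesencephalic and subventricular cells, and Slc1a2 on all arrays. Gfap read 10027 in hippocampal cells, 3800 in bulb cells, 1007 in mesencephalic cells and 3112 in subventricular cells. The summed signal of the 11 astrocyte markers was 35771, 24182, 14330 and 24460 in the same order. Of 14 ependymal and multiciliated cell genes, 5 had a probe set of their own and 4 were above the floor, and all 4 were called higher in the hippocampus (median difference 2.19), the culture where Ttr, Folr1 and Calml4 were high. They were Foxj1, the master factor of motile cilia (1910, against 74.4, 304.0 and 919.0 in bulb, mesencephalic and subventricular cells), Rsph1 (4.96-fold), Tekt1 (at least 3.43-fold) and Rarres2, which the choroid plexus list also holds. Their summed signal was 4143 in hippocampal cells, 341.7 in bulb cells, 493.4 in mesencephalic cells and 1468 in subventricular cells.

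All 14 microglia and macrophage markers were above the floor in hippocampal cells and 13 in bulb cells, the cultures in which Aqp1 was high, against none in mesencephalic cells and 2 in subventricular cells. Their summed signal was 37217, 34879, 367.0 and 563.5, and the microglial growth factor receptor Csf1r read 5099, 4073, 90.9 and 55.6 in the same order. Fibroblast and meningeal markers, 15 of 16 above the floor, had a summed signal of 66443 in bulb cells, 42744 in mesencephalic cells, 26165 in hippocampal cells and 12090 in subventricular cells. Of 13 brain endothelial markers, 10 were under the floor on all arrays, Pecam1, Cldn5, Tie1 and Kdr among them (at most 6.4, 22.8, 9.0 and 91.4). The other 3 were each above it on 1 array: Cdh5 in mesencephalic cells (254.5, at least 2.08-fold higher), Abcb1a in bulb cells (146.3) and Ocln in hippocampal cells (129.0). Summed signals of the 13 ran from 252.6 to 665.6 and consist mostly of values under the floor, so they give the cultures no order. Of 10 pericyte and smooth muscle markers, 5 were above the floor, with medians of -0.33 to 0.27. Whether any of these cell types contributed to the signals of Aqp1 or Slco1a4 was not tested.

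**Figure D4:**
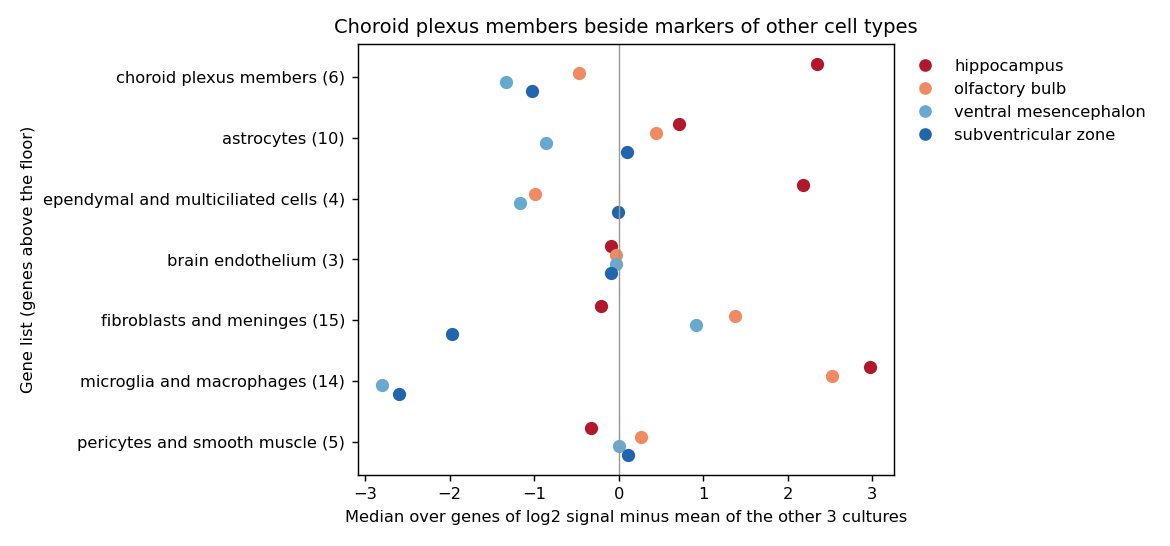
Median over the genes of a list of the log2 distance of a culture from the mean of the remaining cultures, for the choroid plexus members and 6 lists of cell type markers, with 1 point per culture and the number of genes above the floor in brackets. The hippocampus stands highest for the members (2.35), the ependymal genes (2.19), the microglial genes (2.97, beside 2.52 in the olfactory bulb) and the astrocyte genes (0.71). Endothelial medians lie near 0.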

How the data were processed

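Total RNA of 4 astrocyte cultures, 1 per region, was hybridised to 1 Affymetrix mouse array each. The deposited table holds linear signal intensities per probe set, made with GCOS 1.4 per the submitters' processing notes; algorithm, detection calls and genome build are not given in the sources here. The authors' intensities were used without further scaling, since trimmed means were alike. Gene names came from the platform annotation, updated by gene identifier: 20380 probe sets had 1 symbol and stood for 12393 genes, 691 had several and were left out, with 64 control probe sets. Signals were raised to the floor of 122.1, then log2 was taken. Each region was compared with the other 3 at a 2-fold rule, with no test. The members and lists were chosen with earlier results of these data known. Named genes are all members, up to 4 called genes of a list with the widest gap, a fixed further set and the 3 genes most like a called member; Col9a3, Krt8, Krt18, Cldn10, Slc4a5, Car12, Car14, Cldn3, Col8a1, Col18a1 and other genes named for being under the floor, as single markers or to complete a count were picked with their values in view. The calling rule was tested on simulated data. Alternatives were 2 other floors, the mean of all probe sets, quantile normalization, all members and leaving out an array. Python 3.11.15, numpy 2.4.6 and pandas 2.3.3 were used.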

Additional observations from a re-analysis of the deposited data

How the results depend on the processing

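No paired analysis was possible because each region has 1 array and the results come from no test. The count of members higher in the hippocampus was 3, and 2 to 4 under the alternatives that keep its array: Ttr and Calml4 were called under all of them, Folr1 under all but the floor at the 70th percentile. With that floor, Slco1a4 was no longer lower in the ventral mesencephalon (0 members), and the medians were 1.56 (hippocampus), -0.20 (olfactory bulb), -1.13 (ventral mesencephalon) and -0.62 (subventricular zone). With the floor at the 25th percentile they were 3.51, -1.20, -0.89 and -1.87, and 1 member each was lower in the olfactory bulb (Cldn2) and the subventricular zone (Aqp1). Over all members the last 3 were -0.22, -0.72 and -0.72. Quantile normalization and the mean of all probe sets changed no count and no median by more than the probe set noise.

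Without the hippocampus array the olfactory bulb median was 1.31 and the subventricular zone median -0.28, and 1 member was higher in the olfactory bulb. Without the olfactory bulb array the hippocampus and subventricular zone medians were 2.65 and -1.49. Without the ventral mesencephalon array the hippocampus, olfactory bulb and subventricular zone medians were 2.14, -0.71 and -1.40, and 1 member was lower in the subventricular zone. Without the subventricular zone array the hippocampus, olfactory bulb and ventral mesencephalon medians were 2.09, -0.71 and -1.94, and 2 members were lower in the ventral mesencephalon. The floors and the left-out arrays change these values by construction. Of 196 values of single genes under alternatives, 98 moved by more than 0.19, and no called value changed sign. This limit is the noise of such a difference for genes above the floor on all arrays, which no member was. Signals near the floor limit what can be said of Cldn2 and Kl.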
